A study of Mus musculus with 27 samples.

Results

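Metallothionein, heme and iron genes, which bind, store, move or recycle metal and heme, were followed through the injury and repair of mouse muscle. They were taken by symbol from the deposited expression tables: Mt1, Mt2, Hp, Hmox1, Blvrb, Fth1, Ftl1, Tfrc, Slc40a1 and Slc11a1, that is 10 of the 55852 entries of the table of injured muscle. The injured libraries came from male C57BL/6J wild-type mice (WT) and male mice with a global Gsdme knockout (KO), both given cardiotoxin (CTX), a snake venom peptide that breaks down muscle fibres and is followed by regeneration. Muscle was collected 1, 4, 7 and 14 days after the injection (D1, D4, D7 and D14), with 3 libraries for each genotype and day. A further 3 libraries were from WT control muscle without CTX, which the study takes from the uninjected leg 1 day after injury. Control and WT D1 libraries may therefore share mice, which the labels do not say, and no KO control muscle was analysed here. Gsdme encodes gasdermin E, a protein that opens pores in the cell membrane during a lytic form of cell death. All injured mice, WT and KO, carried the same toxin injury. The age of the mice was not given in the sources used here, and the genotype field of the KO samples says knockdown where their titles say KO.

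Metallothioneins are small, cysteine-rich proteins that hold zinc and copper, and their genes are switched on by metal, glucocorticoid and inflammatory signals. When fibres and vessels break, myoglobin and haemoglobin spill heme. Haptoglobin captures haemoglobin, heme oxygenase opens the heme ring and frees its iron, and biliverdin reductase completes the breakdown. Ferritin stores the iron, the transferrin receptor brings iron into cells, ferroportin lets it out, and macrophages that clear dead fibres carry much of this traffic.

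The values are TPM, which give each transcript's share of its library after correction for gene length. TPM keeps no read number, so the depth of the libraries is unknown. Markers of mature muscle fibre, 10 genes, summed to 40656 TPM or more in every library. Gsdme was not absent from the KO libraries: its mean level was 1.66, 1.33, 1.11 and 1.67 TPM in KO muscle on D1, D4, D7 and D14, beside 3.59, 2.77, 2.15 and 1.98 TPM in WT muscle, and the libraries of the genotypes overlapped on D14. Some libraries stood apart within their groups. WT D4 replicate 1 had the highest summed level of 10 macrophage markers of all libraries, 7068 TPM, and KO D4 replicate 2 had 655 TPM where the other KO D4 libraries had 3957 and 4744 TPM. WT D1 replicate 3 had 982 TPM beside 2494 and 3824 TPM. KO D7 replicate 2 had 669 TPM beside 1690 and 1567 TPM. The injured table and the control table both list the 3 WT D1 libraries, and tests were made only within a table. For 9 of the members the WT D1 values differed between tables by at most 0.521%, and for Slc11a1 by 5.81% to 14.8%. Which sequencing batch the WT D1 libraries came from was not given, so batch cannot be told apart from injury in the control comparison or from genotype on D1. In whole tissue, fewer cells of a type and less RNA per cell cannot be told apart.

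Mt2 and Mt1 lie next to each other on the plus strand of chromosome 8 (GRCm38), Mt2 at chr8:94172664-94173568 and Mt1 at chr8:94179082-94180327, with 5513 bases between them. As both moved together in what follows, the 250 bases before each RefSeq start are shown from 5′ to 3′ (GRCm38.p6, plus strand, chr8:94172368-94172617 for Mt2 and chr8:94178839-94179088 for Mt1). Capitals mark TGCACNC or TGCGCNC on either strand, the core of the metal response element that the zinc-sensing factor MTF1 recognises.
Mt2: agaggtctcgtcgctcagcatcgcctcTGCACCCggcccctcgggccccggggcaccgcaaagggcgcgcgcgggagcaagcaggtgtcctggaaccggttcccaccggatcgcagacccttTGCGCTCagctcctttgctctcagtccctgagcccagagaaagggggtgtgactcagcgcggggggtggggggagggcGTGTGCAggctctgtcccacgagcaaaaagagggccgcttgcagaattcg
Mt1: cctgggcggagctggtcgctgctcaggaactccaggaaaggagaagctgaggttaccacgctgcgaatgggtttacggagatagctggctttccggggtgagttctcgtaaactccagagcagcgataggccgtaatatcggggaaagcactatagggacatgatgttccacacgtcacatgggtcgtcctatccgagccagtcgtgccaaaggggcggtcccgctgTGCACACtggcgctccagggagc
Mt1, first 30 transcribed bases (chr8:94179089-94179118): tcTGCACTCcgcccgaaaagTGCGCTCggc
Counted from the RefSeq starts, these windows hold 3 matches before that of Mt2, 1 before that of Mt1 and 2 just after it. The 30 bases are called transcribed by the RefSeq start alone, while GENCODE starts Mt1 at chr8:94179082 and Mt2 at chr8:94172664. All matches of Mt2 lie before its GENCODE start, so the numbers before and after a start depend on the annotation used. The base at which transcription began in this muscle was not tested. Over windows of 250 bases before and 50 after the start, Mt2 had 4 matches and Mt1 had 3. Of the 32851 RefSeq promoter windows of that length, 25.7% held at least 1 match, 1.97% held at least 3 and 0.517% held at least 4. Of the 7 members with a window, Tfrc was the only other one with a match, with 1 match on each strand, the pair overlapping in part. A match is a description of letters and not a site that was shown to be used.

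For 4 of the iron genes, the transcript itself holds the iron response element, a small hairpin that iron regulatory proteins bind when iron is scarce. As background, binding in the leader blocks translation of ferritin and ferroportin, and binding in the tail protects the transferrin receptor transcript from decay. A search of GENCODE transcripts for a C, any 5 bases, CAGTG, a base other than G and 5 bases able to pair with the first 5 gave 1 match in the 5′ UTR of Fth1, Ftl1 and Slc40a1 each, and 4 in the 3′ UTR of Tfrc. They are shown with the 6 bases of the loop in capitals, and their GRCm38 coordinates and strand.
Fth1 (chr19:9982732-9982759, plus): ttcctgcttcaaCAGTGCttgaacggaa
Ftl1 (chr7:45459780-45459807, minus): gtcttgcttcaaCAGTGTttgaacggaa
Slc40a1 (chr1:45925466-45925493, minus): caacttcagctaCAGTGTtagctaagtt
Tfrc (chr16:32631219-32631246, plus): aattatcggaagCAGTGCcttccataat
Tfrc (chr16:32631598-32631625, plus): cattatcgggagCAGTGTcttccataat
Tfrc (chr16:32631663-32631690, plus): ctatatcggagaCAGTGAtctccatatg
Tfrc (chr16:32631710-32631737, plus): aattatcgggaaCAGTGTttcccataat
Of 50507 protein-coding transcripts with a 5′ UTR, 0.103% held a match there. Of 47832 with a 3′ UTR, 0.332% held a match and 1 transcript, that of Tfrc, held more than 1. Because these elements act on ferritin mainly after transcription, transcript levels such as those below do not measure ferritin protein.

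Both metallothioneins rose on the first day more than any other member and returned most of the way by D4. In control muscle Mt1 was at 87.7, 61.4 and 60.8 TPM, and in WT muscle on D1 it was at 1868, 2588 and 2576 TPM in the same table. Mt2 was at 68.7, 39.1 and 42.8 TPM in control muscle and at 2633, 3617 and 3448 TPM in WT D1 muscle. No D1 library came near the control libraries. The mean of Mt1 was 33.5-fold higher and that of Mt2 64.4-fold higher, which on the log2(TPM + 1) scale used for all tests below were differences of 5.05 (SE 0.22, limma adjusted p = 1.72e-05) and 6.01 (SE 0.25, adjusted p = 1.43e-05). KO muscle on D1 held 1636, 1813 and 2109 TPM of Mt1 and 2555, 2712 and 3192 TPM of Mt2, values that overlapped those of WT muscle for both genes.

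**Figure D1:**
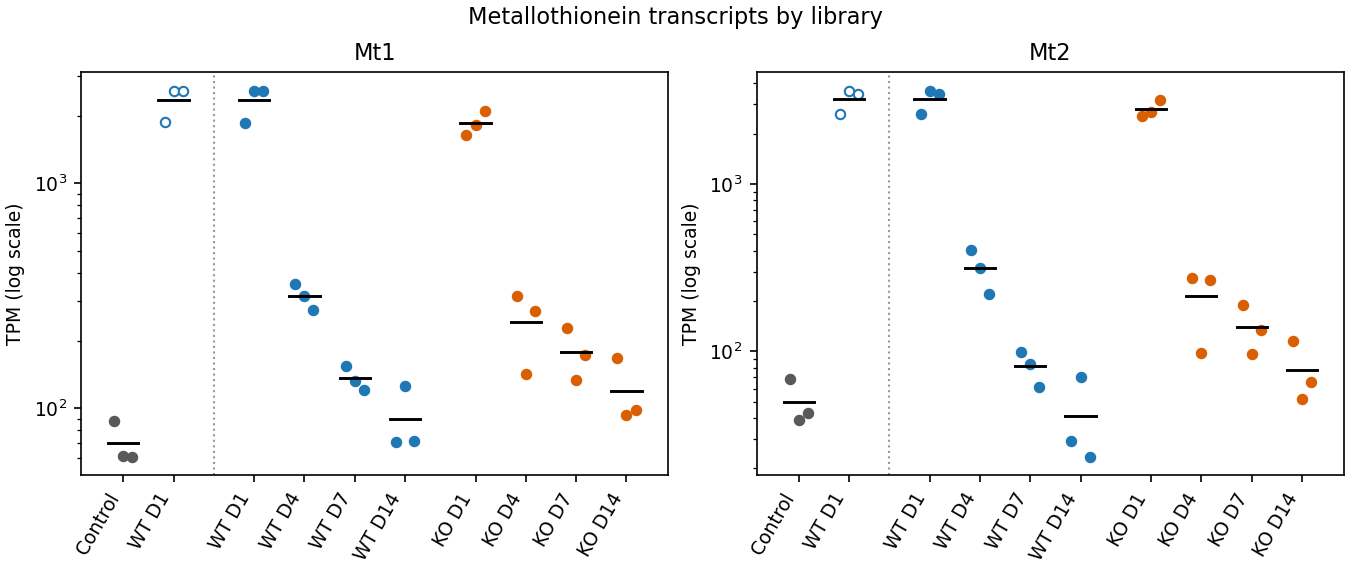
TPM of Mt1 and Mt2 on a log axis in each library, by group, with black lines at the group mean of 3 libraries; the groups left of the dotted line come from the control table and those right of it from the injured table. Open circles are the WT D1 libraries as quantified in the control table, and the lowest D1 value is 1636 TPM while the highest of all other libraries is 404 TPM.

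From D1 to D4 Mt1 fell by 2.88 on the log2 scale in WT muscle (SE 0.29, adjusted p = 1.21e-05) and by 3.00 in KO muscle (SE 0.29, adjusted p = 1.54e-05). Mt2 fell by 3.39 in WT muscle (SE 0.41, adjusted p = 5.85e-05) and by 3.86 in KO muscle (SE 0.41, adjusted p = 2.86e-05). On D4 the WT libraries held 357, 315 and 273 TPM of Mt1 and 404, 317 and 219 TPM of Mt2. In WT muscle a second fall followed from D4 to D7, by 1.21 for Mt1 (SE 0.29, adjusted p = 0.0173) and by 1.91 for Mt2 (SE 0.41, adjusted p = 0.0108), and both lost the call without WT D4 replicate 1 or WT D7 replicate 3, and Mt1 also without WT D7 replicate 2. Mt2 fell again from D7 to D14, by 1.11 (SE 0.41, adjusted p = 0.0459), to 29.4, 70.0 and 23.4 TPM, a call lost in 11 of 24 fits that each left out 1 library, with no filter on low values (adjusted p = 0.0991) and under median-of-ratios scaling, which sets each library by its typical gene (by 0.54, adjusted p = 0.27). Mt1 differed by -0.64 (adjusted p = 0.09). In KO muscle neither gene passed the test after D4. By D14 Mt1 was at 70.9, 125 and 71.9 TPM in WT muscle and at 167, 93.2 and 98.8 TPM in KO muscle, beside 60.8 to 87.7 TPM in the control libraries of the other table, against which they were not tested. The WT D14 libraries overlapped the control libraries, and the KO D14 libraries all lay above them.

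The balance between the pair changed with the injury. Mt2 exceeded Mt1 in TPM in all 6 D1 libraries, with a ratio of 1.38 ± 0.04 in WT and 1.52 ± 0.03 in KO muscle (SD, n = 3 each). In control muscle the ratio was 0.708 ± 0.073, on D7 it was 0.596 ± 0.078 in WT and 0.777 ± 0.056 in KO muscle, and on D14 it was 0.433 ± 0.117 and 0.637 ± 0.071. The order of the pair thus differed between D1 and control muscle in every library, with Mt1 the more abundant in the latter. Over the 24 injured libraries the log2 values of the pair had a Pearson r of 0.995, the highest with either gene of all genes tested. This is a description across libraries that share days, with no test. The next most alike were Eif4ebp1 (0.972) and Tgm2 (0.971) for Mt1, and Serpina3n (0.973), an acute-phase protease inhibitor, for Mt2.

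The other metallothioneins followed the same course from much lower levels. Mt3, known mainly from brain, had a mean of 9.03 ± 1.39 TPM in control muscle and 332 ± 161 TPM on D1 (SD, n = 3 each), a difference of 4.96 (SE 0.30, adjusted p = 8.1e-05), and fell by 2.50 to D4 in WT (adjusted p = 0.0011) and by 1.89 in KO muscle (adjusted p = 0.0103). Mt4, known from stratified epithelium, was listed at 0 in all 3 control libraries and at 17.2, 17.99 and 30.8 TPM in those of WT D1, and in KO D1 muscle it ranged from 15.9 to 32.3 TPM. No library from D4 on held more than 0.60 TPM of Mt4. Of the 12 genes of a list of metallothioneins and zinc transporters that were tested between D1 and control muscle, 11 rose and none fell, with a median difference of 1.38. Over all genes tested in that comparison the median was 0.66, 55.4% rose and 5.64% fell. The rises of the list included Slc30a1, the zinc exporter that MTF1 also controls (1.49 to 6.12 TPM, difference 1.49, adjusted p = 0.00248), Slc39a14, an importer of zinc and of iron not bound to transferrin (5.46 to 29.6 TPM, difference 2.05, adjusted p = 0.00581), and Mtf1 itself (3.22 to 6.32 TPM, difference 0.77, adjusted p = 0.0219). The difference of Mtf1 was close to the median of all genes, 0.66, so that no rise relative to other genes can be given. From D1 to D4 the list had 1 rise and 4 falls among 13 tested in WT muscle (14.6% and 5.27% of all genes), the falls being Mt1 to Mt4, and 6 falls and no rise in KO muscle (12.2% and 7.18% of all genes), where Slc30a1 and Slc39a14 fell as well.

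Among the genes that deal with haemoglobin and heme, Hp (chr8:109575128-109579172, minus strand) was the member whose level in WT D14 muscle was furthest below that of control muscle, set side by side. It encodes haptoglobin, the plasma protein that binds free haemoglobin and that liver and fat tissue are known to make. Control muscle held 18.8, 23.4 and 30.5 TPM, and the WT D1 libraries held 30.7, 67.5 and 104 TPM in that table, a difference of 1.30 (SE 0.40, adjusted p = 0.0221). It missed the threshold under median-of-ratios scaling (0.53, adjusted p = 0.351), with no filter on low values (adjusted p = 0.079) and without control replicate 1 or 2 or WT D1 replicate 2 (adjusted p = 0.0741, 0.0708 and 0.0574). WT D4 muscle held 232, 33.8 and 25.5 TPM, so that its mean of 97.2 ± 117 TPM (SD, n = 3) rested on replicate 1. WT D7 muscle held 14.6, 16.8 and 15.6 TPM and WT D14 muscle 2.72, 7.61 and 4.82 TPM, the lowest of all groups. KO muscle held 190, 61.5 and 101.4 TPM on D1, 102, 95.7 and 62.3 TPM on D4, 33.0, 13.8 and 18.8 TPM on D7 and 31.0, 34.9 and 51.4 TPM on D14.

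On D14 every KO library was thus above every WT library, and the KO mean was 7.74-fold that of WT muscle. The difference on the log2 scale was 2.78 (SE 0.62, unadjusted p = 0.000236), and it did not pass after adjustment over the 15718 genes tested (limma adjusted p = 0.223). It passed when WT D4 replicate 1 was left out of the fit (adjusted p = 0.0381) and when libraries were weighted by their quality (2.94, adjusted p = 0.00254). Over all 4 days the mean difference was 1.12 (SE 0.31, adjusted p = 0.812). Markers of fat cells moved with Hp on D14. The summed level of 8 adipocyte markers was 396 to 469 TPM in WT D14, 747 to 2003 TPM in KO D14 and 684 to 840 TPM in control libraries, with Adipoq, the adipocyte hormone adiponectin, at 2.20 to 4.92, 18.2 to 72.2 and 23.1 to 32.4 TPM. None of the 8 markers passed the test between genotypes on D14, where their median difference was 2.95 beside 0.08 over all genes. Within WT D1, WT D4, KO D1 and KO D7 muscle the libraries had the same order in Hp as in these markers, and in 7 of the 8 injured groups, all but WT D14, the library lowest in the markers was also lowest in Hp. In WT D1 muscle the markers summed to 359, 372 and 658 TPM, where Hp was at 30.6, 67.1 and 104 TPM. Control muscle had higher sums, 684 to 840 TPM, with less Hp, 18.8 to 30.5 TPM. Most of the sum in WT muscle was 1 of the 8 markers, Fabp4, with means of 325 TPM on D1 and 348 TPM on D14. The order of libraries in the sum need therefore not be their order in fat cells. Albumin, which marks hepatocytes, was at most 2.53 TPM in any injured library and 10.6 TPM in any control library. The part of fat cells in the level of Hp was not tested.

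**Figure D2:**
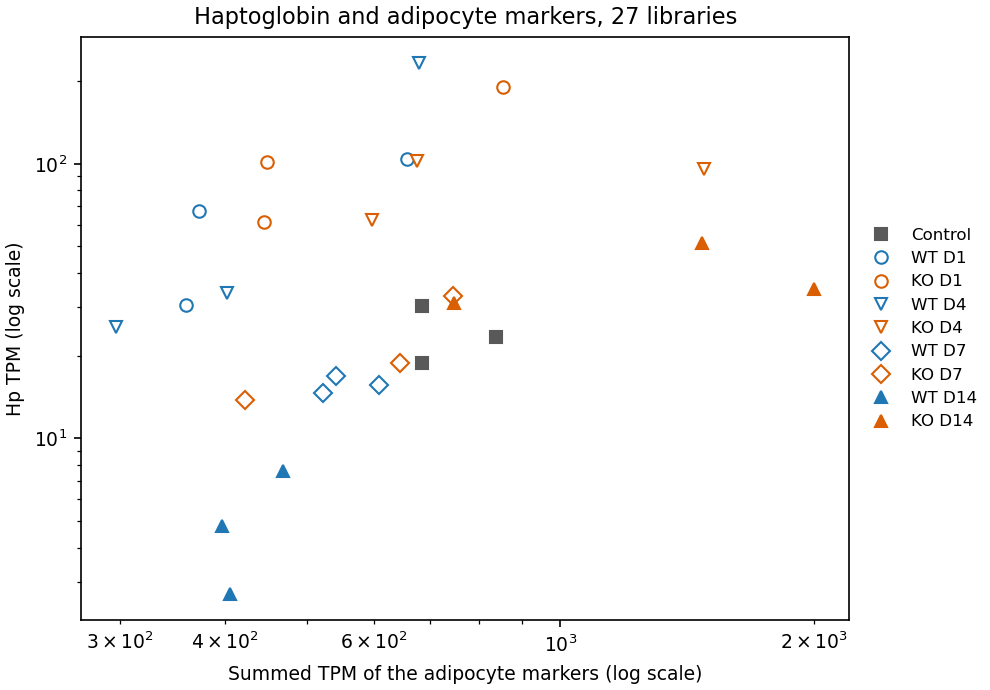
Hp TPM against the summed TPM of 8 adipocyte markers, both on log axes, 1 point per library, in blue for WT, orange for KO and grey for control muscle; filled points are D14 and control. The 3 WT D14 libraries lie lowest on the Hp axis at 2.72 to 7.61 TPM, while the KO D14 and control libraries lie between 18.8 and 51.4 TPM and to the right of 680 TPM of adipocyte markers.

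Hmox1 (chr8:75093621-75100589, plus strand), the inducible heme oxygenase, rose with injury and on D14 stood at levels like those of control muscle, set side by side. Control muscle held 16.2, 15.1 and 13.8 TPM and the WT D1 libraries 188, 237 and 60.7 TPM, a difference of 3.13 (SE 0.44, adjusted p = 0.00178). In the injured table WT D4 muscle held 301, 61.8 and 74.4 TPM, WT D7 muscle 40.4, 34.1 and 32.1 TPM, and WT D14 muscle 9.79, 18.3 and 8.66 TPM. None of the steps between these days passed the test in WT muscle (adjusted p = 0.748, 0.0687 and 0.0524). KO muscle on D1 had the highest mean of any group, with libraries at 361, 276 and 498 TPM. Hmox1 in KO muscle then fell by 3.35 to D4 (SE 0.58, adjusted p = 0.00103), when the libraries held 56.1, 14.4 and 52.8 TPM. It was at 36.8, 17.3 and 44.5 TPM on D7 and at 9.71, 12.5 and 14.7 TPM on D14.

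The order of the genotypes was therefore opposite on D1 and D4. Every KO library was above every WT library on D1 (difference 1.39, SE 0.58, adjusted p = 0.873) and below every WT library on D4 (difference -1.64, SE 0.58, adjusted p = 0.212), and neither passed the test. A test across days of whether the genotype difference changed gave an unadjusted p of 0.0147 for Hmox1 and an adjusted p of 0.527. The summed macrophage and neutrophil markers overlapped between the genotypes on both days, which with 3 libraries per group does not show that their levels were equal. The means of the macrophage markers other than Cd163 had the same order of genotypes as Hmox1 on both days. The most abundant of them, Lyz2, had means of 2503 TPM in KO and 1401 TPM in WT muscle on D1. On D4 its means were 1793 and 2771 TPM. The summed macrophage markers were 3132 to 4468 TPM in KO and 982 to 3824 TPM in WT muscle on D1, and 655 to 4744 TPM in KO and 3524 to 7068 TPM in WT muscle on D4. Neutrophil markers summed to 622, 310 and 3683 TPM in KO and to 307, 677 and 66.2 TPM in WT muscle on D1. The high KO value was that of replicate 3 alone, and S100a8 was at up to 1286 TPM in KO muscle. On D4 they summed to 11.4 to 49.7 TPM in KO and 22.1 to 300 TPM in WT muscle. In 6 of the 8 injured groups, all but WT D4 and WT D7, the library lowest in macrophage markers also had the least Hmox1, such as WT D1 replicate 3 at 60.6 TPM, KO D1 replicate 2 at 276 TPM and KO D4 replicate 2 at 14.4 TPM. The full order of the libraries was the same in 4 of the 8 groups. The 3 genes most like Hmox1 over the 24 injured libraries were Itgam, the integrin CD11b of myeloid cells and itself 1 of the 10 macrophage markers (r = 0.986), Il4ra (0.985) and Cd300lf (0.984). The part of myeloid cells in the level of Hmox1 was not tested.

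Blvrb (chr7:27447978-27466144, plus strand), which encodes biliverdin reductase B, also rose on D1. It went from 11.9, 11.2 and 9.10 TPM in control muscle to 34.6, 46.3 and 25.2 TPM on D1, a difference of 1.60 (SE 0.24, adjusted p = 0.00211). Its highest mean was that of WT D4 muscle, with 73.7, 46.0 and 49.5 TPM, which overlapped the D1 libraries. The 3 WT D7 libraries stood within 33.1 to 33.5 TPM, and by D14 they had fallen by 1.18 (SE 0.31, adjusted p = 0.013) to 15.0, 21.1 and 8.95 TPM, a call lost without WT D7 replicate 1 or WT D14 replicate 3. In KO muscle the mean went from 41.9 TPM on D1 to 38.3, 26.0 and 15.3 TPM on D4, D7 and D14, with no step past the test.

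Slc11a1 (chr1:74375195-74386062, plus strand) encodes NRAMP1, which pumps iron and manganese out of the phagosomes of macrophages, and it had the lowest control level of all members. It rose from 2.25, 2.71 and 2.66 TPM to 47.0, 65.5 and 13.2 TPM on D1 in the control table, 16.5-fold by the means, a difference of 3.34 (SE 0.50, adjusted p = 0.00207). It stayed at 96.5, 55.6 and 42.3 TPM in WT D4 muscle and at 23.5, 28.6 and 16.98 TPM on D7, and then fell by 2.26 (SE 0.59, adjusted p = 0.0132) to 3.66, 8.64 and 1.67 TPM on D14, a call lost without the same libraries as for Blvrb. KO muscle had means of 67.0, 35.9, 16.1 and 6.003 TPM over the same days, with KO D4 replicate 2 at 10.8 TPM beside 52.4 and 44.4 TPM. Its closest genes were Laptm5, Tyrobp and Gm2a (r = 0.989, 0.988 and 0.988), the first and second being genes of blood cells and myeloid cells. As for Hmox1, summed macrophage markers rose from 250 to 317 TPM in control muscle to 987 to 3836 TPM on D1. Of the 10 markers 9 rose, where 55.4% of all genes did.

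**Figure D3:**
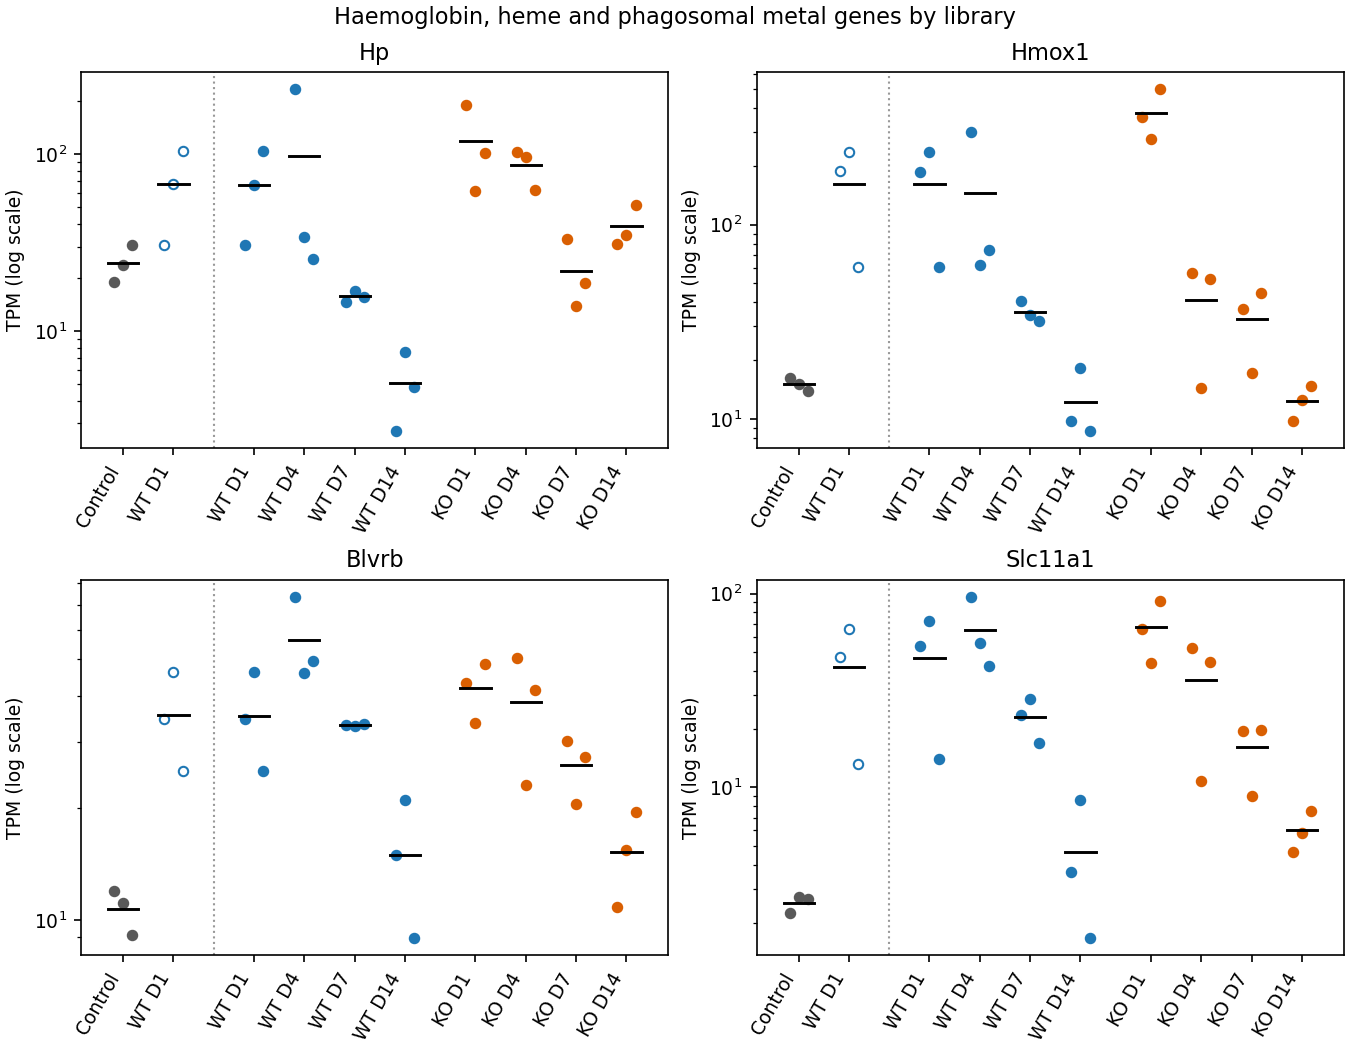
TPM of Hp, Hmox1, Blvrb and Slc11a1 on log axes in each library, with black lines at the mean of 3 libraries; groups left of the dotted line come from the control table, with WT D1 there drawn open. Hp on D14 is at 2.72 to 7.61 TPM in WT and 31.0 to 51.4 TPM in KO libraries, and Hmox1 is at 60.6 to 237 TPM in WT and 276 to 498 TPM in KO libraries on D1.

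Of 11 tested genes of a list for the clearance of haemoglobin and heme, 9 rose and none fell between control and WT D1 muscle (55.4% and 5.64% of all genes), with a median difference of 1.16 beside 0.66 over all genes. Beside Hp, Hmox1 and Blvrb they included Lrp1, the receptor for heme bound to hemopexin (62.2 to 221 TPM, difference 1.70, adjusted p = 0.00423), Blvra (11.0 to 27.6 TPM, 1.21, adjusted p = 0.00429), the heme-sensing repressor Bach1 (5.07 to 13.0 TPM, 1.16, adjusted p = 0.0107), and Slc48a1, which carries heme out of the phagolysosome (33.4 to 44.99 TPM, 0.42, adjusted p = 0.0443). The difference of Slc48a1 was smaller than the median of all genes, 0.66, so that no rise relative to other genes can be given. Cd163, the haemoglobin scavenger receptor of macrophages, went from a mean of 7.83 to 11.9 TPM without passing, and Hpx, hemopexin itself, was at most 1.81 TPM in any library. The erythrocyte markers summed to 1439 to 1977 TPM in control and 906 to 2434 TPM in WT D1 muscle, ranges that overlapped. The part of blood in the levels of these genes was not tested. Among genes of heme synthesis, Alad, Cpox and Ppox rose and Alas1, the rate-limiting enzyme outside the red cell lineage, fell (190 to 109 TPM, difference -0.75, adjusted p = 0.0235), where 55.4% of all genes rose and 5.64% fell. In a list of NRF2, the factor that answers oxidative stress and also drives Hmox1 and the ferritins, and of its targets, all 9 tested genes rose on D1 where 55.4% of all genes did, with a median of 1.06. They were Nfe2l2, which encodes NRF2 itself (23.5 to 50.3 TPM, 1.06, adjusted p = 0.00316), and targets such as Gsr (11.0 to 43.6 TPM, 1.88, adjusted p = 0.000969) and Gclm (13.6 to 43.1 TPM, 1.58, adjusted p = 0.00128). From D1 to D4 5 of these 9 fell in WT muscle (5.27% of all genes) and 8 of 9, Nfe2l2 among them, in KO muscle (12.2% of all genes), and none rose.

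The ferritin subunits behaved unequally. Ftl1 (chr7:45457944-45459884, minus strand), the light chain, had 581, 552 and 453 TPM in control and 2887, 4511 and 1410 TPM in WT D1 muscle, a difference of 2.32 (SE 0.38, adjusted p = 0.0026). Fth1 (chr19:9980598-9985098, plus strand), the heavy chain that oxidises iron as it enters the shell, was already at 4053, 3714 and 3616 TPM in control muscle and reached 5993, 7133 and 5857 TPM. Its difference of 0.73 (SE 0.23, adjusted p = 0.0232) was close to the median of all genes, 0.66, and turned to -0.06 under median-of-ratios scaling, so that no direction relative to other genes can be given. Its call was also lost without any 1 of the 3 control libraries and with no filter (adjusted p = 0.122). The ratio of Ftl1 to Fth1, which does not depend on scaling, was 0.139 ± 0.012 in control muscle (SD, n = 3), 0.452 ± 0.198 in WT D1, 0.748 ± 0.199 in WT D4, 0.435 ± 0.113 in WT D7 and 0.178 ± 0.064 in WT D14 muscle. In KO muscle it was highest on D1, 0.664 ± 0.051, and then 0.420 ± 0.221, 0.286 ± 0.098 and 0.166 ± 0.031. No injured library up to D7 had a ratio as low as the control libraries, the nearest being KO D4 replicate 2 at 0.173.

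By the steps that were called, the heavy chain fell first after D1 and the light chain later in WT muscle. No test compared the steps of these genes with each other. Fth1 fell from D1 to D4 by 0.54 in WT (SE 0.14, adjusted p = 0.0109, but 0.0558 without WT D4 replicate 2 and 0.0625 with no filter) and by 0.70 in KO muscle (SE 0.14, adjusted p = 0.0029, and 0.0546 under median-of-ratios scaling), and from D4 to D7 in WT muscle by 0.51 (adjusted p = 0.0291), a call lost without WT D4 replicate 1 or any WT D7 library, with no filter and under median-of-ratios scaling (by 0.21). Ftl1 in WT muscle held 5009, 2547 and 2503 TPM on D4 and 1605, 1223 and 1126 TPM on D7, a step without overlap that was not called. It fell by 1.37 from D7 to D14 (SE 0.45, adjusted p = 0.0294), to 485, 754 and 350 TPM. The D7 to D14 call was lost without WT D7 replicate 1 or 2 or WT D14 replicate 1 or 3, with no filter (adjusted p = 0.0681) and under median-of-ratios scaling (by 0.78, adjusted p = 0.0934). In KO muscle Ftl1 fell between D1 and D4, from 4843, 3771 and 4871 TPM to 2546, 694 and 2048 TPM (by 1.54, SE 0.45, adjusted p = 0.0238), a call lost without KO D4 replicate 2 (by 0.97, adjusted p = 0.131) and when replicate 1 or 3 of KO D1 was left out (adjusted p = 0.072 and 0.0875), and also with no filter (0.0535) or with library quality weights (0.062). The difference of these steps between genotypes did not pass the test across days (adjusted p = 0.527 for Ftl1). Ftl1 was most like Arpc3, Slc37a2 and Cyba (r = 0.994, 0.993 and 0.993), the last a subunit of the phagocyte oxidase, and Fth1 was most like Hmga1, Tgm2 and Aldh1a2 (r = 0.968, 0.966 and 0.959). Mouse ferritin genes have near-identical pseudogenes, whose reads may have been split from the parent genes, so that the absolute ferritin levels are uncertain.

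The genes of iron entry and exit were the only members that fell on the first day. Tfrc (chr16:32608920-32632794, plus strand), the transferrin receptor, held 36.1, 30.5 and 52.4 TPM in control and 19.1, 28.6 and 26.9 TPM in WT D1 muscle, a difference of -0.64 (SE 0.24, adjusted p = 0.0487). Slc40a1 (chr1:45908068-45926523, minus strand), ferroportin, the sole known iron exporter, held 10.01, 7.35 and 9.83 TPM in control and 6.08, 4.28 and 4.18 TPM in WT D1 muscle, a difference of -0.79 (SE 0.22, adjusted p = 0.0162). The control and D1 libraries did not overlap for either gene, whereas the median gene was 0.66 higher on D1. Both calls were lost without control replicate 1 (adjusted p = 0.0932 for Tfrc and 0.073 for Slc40a1) or 3 (0.188 and 0.069), and that of Tfrc also without WT D1 replicate 1 (0.161) or with no filter (0.109). By D4 both had risen in WT muscle, Tfrc by 0.95 (SE 0.23, adjusted p = 0.00668, and 0.0722 under median-of-ratios scaling) to 42.8, 63.1 and 41.2 TPM and Slc40a1 by 1.44 (SE 0.28, adjusted p = 0.00142) to 12.0, 15.2 and 17.3 TPM.

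In KO muscle Tfrc was at 12.8, 15.2 and 22.8 TPM on D1 and rose by 1.86 to D4 (SE 0.23, adjusted p = 7.59e-05), when it was at 53.7, 55.2 and 82.2 TPM. Slc40a1 in KO muscle was at 5.38, 5.63 and 10.9 TPM on D1 and at 13.0, 7.96 and 10.7 TPM on D4, a difference of 0.52 that did not pass (adjusted p = 0.188). After D4 neither gene passed the test in either genotype. On D7 every KO library (44.6, 39.7 and 49.0 TPM) was below every WT library (61.1, 53.2 and 76.7 TPM) for Tfrc, with a difference of -0.50 (adjusted p = 0.776). Tfrc had the lowest unadjusted p of all members, 0.0132, in the test of whether the genotype difference changed between days, again with an adjusted p of 0.527. On D14 Slc40a1 was at 7.31 to 8.70 TPM in WT and 7.69 to 8.13 TPM in KO muscle, beside 7.35 to 10.01 TPM in control muscle. The genes most like Tfrc were Ndufc2, Ss18l2 and Ptges3l (r = 0.868, 0.860 and 0.859) and those most like Slc40a1 were Slc7a15, Sctr and 4833422C13Rik (r = 0.856, 0.846 and 0.840), so that neither gene had a neighbour as close as those of Mt1, Ftl1 or Slc11a1.

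**Figure D4:**
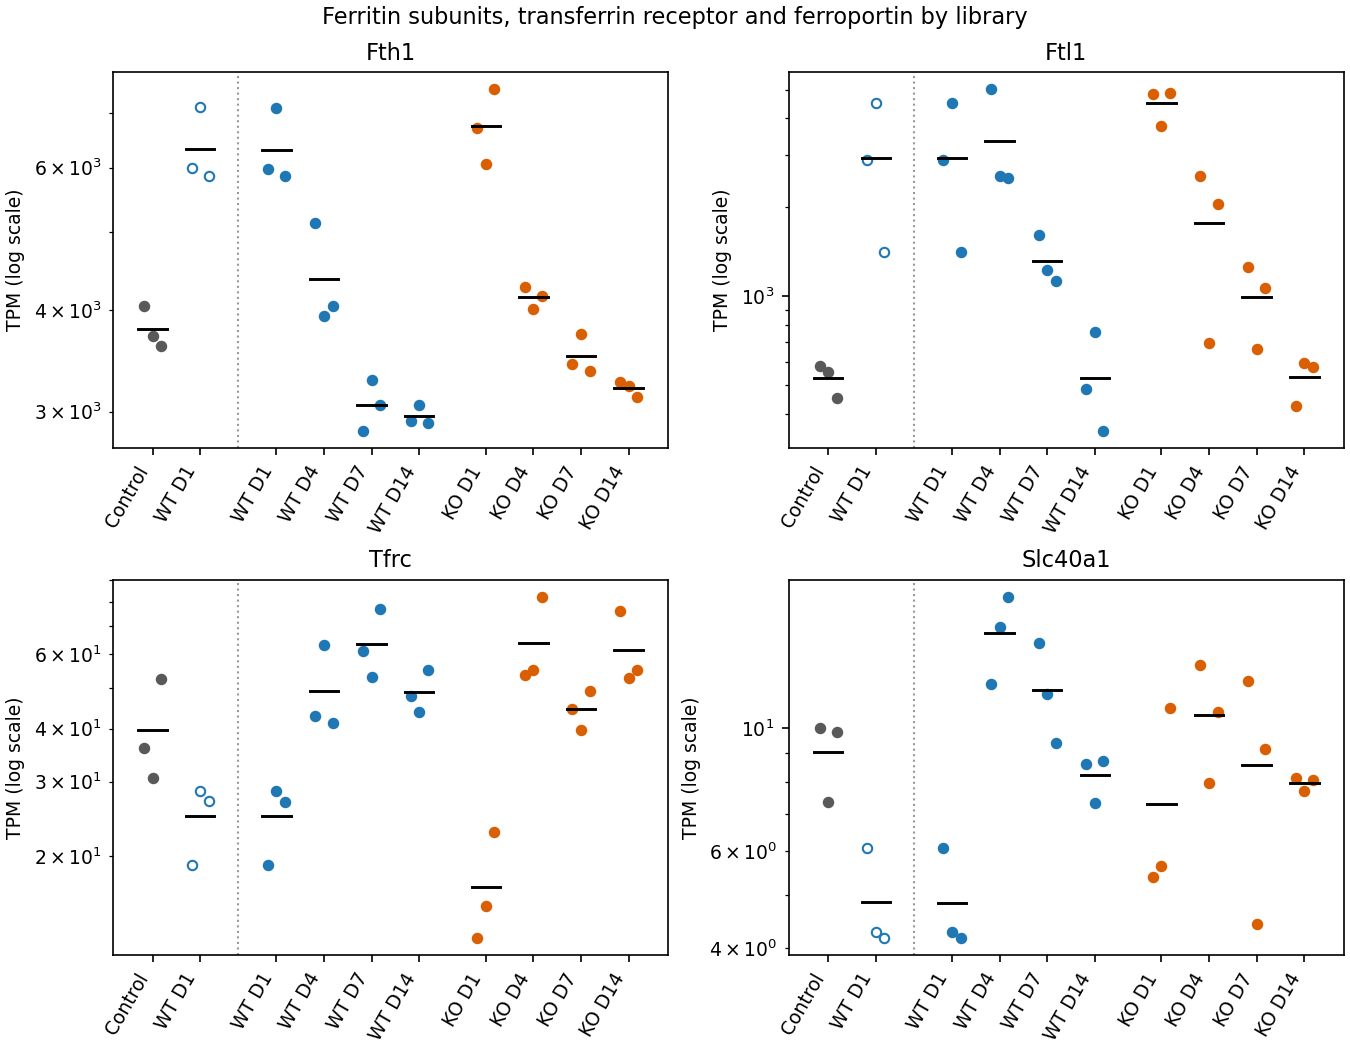
TPM of Fth1, Ftl1, Tfrc and Slc40a1 on log axes in each library, with black lines at the mean of 3 libraries; groups left of the dotted line come from the control table, with WT D1 there drawn open. Tfrc and Slc40a1 are lower in the WT D1 libraries (19.1 to 28.6 and 4.18 to 6.08 TPM) than in control muscle (30.5 to 52.4 and 7.35 to 10.01 TPM), while Ftl1 is higher.

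Of 15 tested genes of a list for iron uptake, storage and export, 9 rose and 3 fell between control and WT D1 muscle (55.4% and 5.64% of all genes), the falls being Tfrc, Slc40a1 and Trf. Trf, transferrin, the carrier that the receptor takes up, went from a mean of 75.7 to 33.4 TPM (difference -1.21, adjusted p = 0.00606) and then rose to 160 TPM in WT D4 muscle (difference 2.27, adjusted p = 0.000274) and from 36.3 to 137 TPM in KO muscle (1.86, adjusted p = 0.00184). It was called in the same directions as its receptor up to D4 in WT muscle, and from D1 to D4 in KO muscle, which had no control. In WT muscle Trf then fell to 65.7 TPM on D7 (by 1.25, adjusted p = 0.0299) and to 33.0 TPM on D14 (by 1.11, adjusted p = 0.0255), where Tfrc had no call. Lcn2, lipocalin 2, which binds iron-loaded siderophores, had the largest rise of the list, from 1.56 to 92.2 TPM (5.05, SE 0.36, adjusted p = 0.000192), and it fell by 4.07 in WT and by 4.22 in KO muscle to D4 (adjusted p = 0.000185 and 0.000234). Steap4, a metalloreductase, rose from 22.4 to 48.9 TPM (1.08, adjusted p = 0.00235), as did Slc11a2, the importer DMT1, from 13.4 to 26.4 TPM (0.93, adjusted p = 0.00622). Among 7 tested genes of iron sensing, Aco1 and Ireb2, which encode the iron regulatory proteins, and Fbxl5 rose, and Hjv, a muscle-expressed coreceptor of the hepcidin pathway, fell from 454 to 267 TPM (-0.82, adjusted p = 0.0226). Over all genes 55.4% rose and 5.64% fell in this comparison. Hamp, hepcidin, was at most 2.31 TPM in any library. Of 12 genes of mitochondrial iron and iron-sulfur assembly, only the mitochondrial iron importers Slc25a37 and Slc25a28 rose and Isca1 fell, where 55.4% of all genes rose, with a list median of 0.03.

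Counted over the members, all 10 passed the test between control and WT D1 muscle, 8 higher and 2 lower, against the 55.4% and 5.64% of all 13041 genes tested. In WT muscle 2 rose and 3 fell from D1 to D4 (14.6% and 5.27% of all genes). Then none rose and 3 fell from D4 to D7 (3.04% and 9.31%), and none rose and 4 fell from D7 to D14 (0.923% and 30.9%). The count from D4 to D7 was 0 without WT D4 replicate 1 or without WT D7 replicate 3, 1 without WT D7 replicate 2, 5 without WT D4 replicate 2, and 6 without WT D1 replicate 3 or KO D4 replicate 2. The count from D7 to D14 was 0 without WT D14 replicate 3 or WT D7 replicate 1. In KO muscle 1 rose and 5 fell from D1 to D4 (7.18% and 12.2%), and none was called from D4 to D7 (0% and 0%) or from D7 to D14 (0.0827% and 0.477%), with 2 and 3 members at an unadjusted p under 0.05 (9.89% and 19.3% of all genes). The median of all genes shifted by 0.17, -0.24 and -0.45 over the WT steps and by -0.15, -0.15 and -0.19 over the KO steps. The medians of the members were 0.12, -1.25 and -1.15 in WT and -0.89, -0.49 and -0.67 in KO muscle.

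Between genotypes no member passed the test on any day. On D1, D4, D7 and D14, 2, 2, 1 and 2 of the 10 members had an unadjusted p under 0.05, beside 5.38%, 22.7%, 3.06% and 2.06% of all genes. After adjustment limma called 0.00636%, 0%, 0% and 0% of all genes, that is 1 gene, Gm42793. No member was called for the average over days (0.00636% of all genes, the gene Dynlt1b, with 1 member and 3.54% of all genes at an unadjusted p under 0.05) or for a change of the genotype difference between days (0%, with 4 members and 7.65% of all genes at an unadjusted p under 0.05). Members whose KO libraries all lay above the WT libraries were 1 on D1 (Hmox1), none on D4, 1 on D7 (Fth1) and 2 on D14 (Hp and Fth1), against 3.33%, 2.77%, 1.85% and 7.37% of all genes. Those whose KO libraries all lay below were none on D1, 1 on D4 (Hmox1), 2 on D7 (Blvrb and Tfrc) and none on D14, against 3.38%, 11.2%, 14.6% and 1.04%. The members on D4 had a median difference of -0.52 and 8 of 10 were below 0, where the median of all genes was -0.28. Besides Hmox1, Ftl1 had the smallest p on that day, with a difference of -1.05 (SE 0.45, adjusted p = 0.212). On D14 9 of 10 members were above 0, with Mt2 at 0.99 (SE 0.41, adjusted p = 1) after Hp. No list of metal, heme or iron genes had a called member between genotypes on any day.

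**Figure D5:**
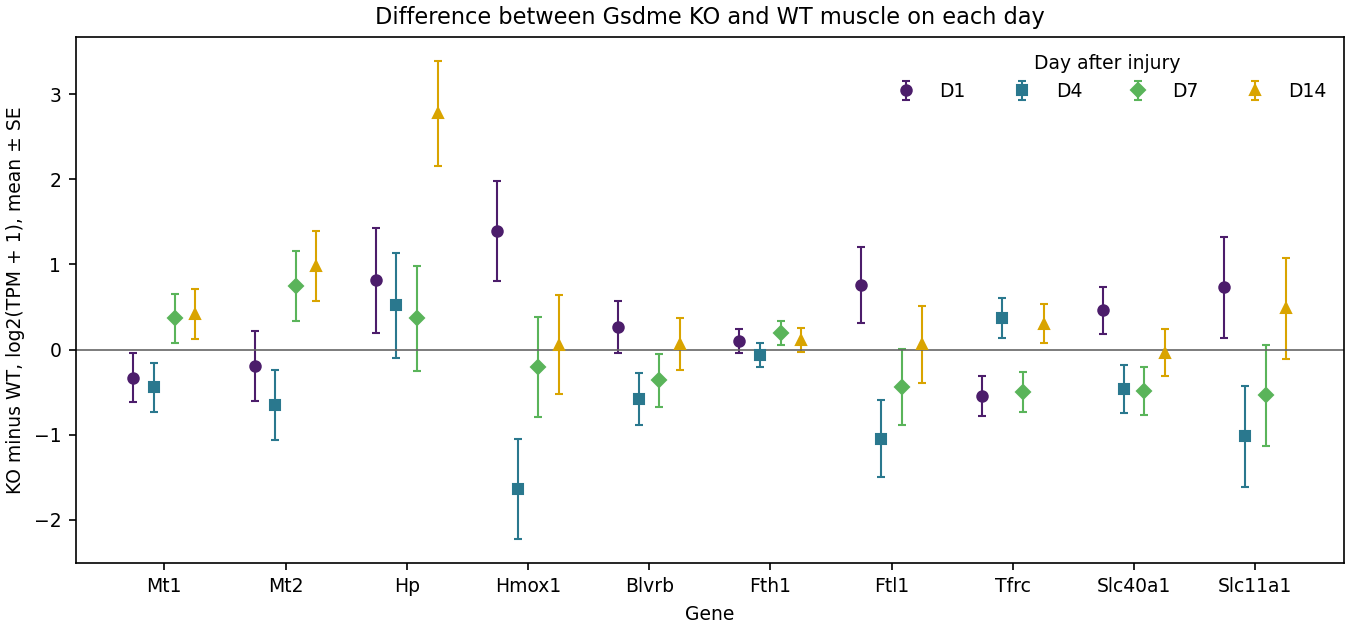
Difference between KO and WT muscle in mean log2(TPM + 1) for each member on D1, D4, D7 and D14, with bars of 1 SE from the fit to 24 libraries. Hp on D14 is highest at 2.78, and Hmox1 runs from 1.39 on D1 to -1.64 on D4; no difference passed the adjusted test.

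In the order of the 8 injured groups by mean level, the genes fell into a few shapes. Mt1, Mt2 and Fth1 had both D1 groups on top, and the lower of these did not overlap the next group. Hmox1, Ftl1, Slc11a1 and Hp had KO D1 first, and of these only the KO D1 libraries of Hmox1 did not overlap those of the next group. WT D4, the group after that, reached 301 TPM of Hmox1. The lowest KO D1 library was at 276 TPM, so KO D1 and WT D4 overlapped. Blvrb and Slc40a1 were highest in WT D4 muscle, and both D1 groups were lowest for Tfrc and Slc40a1. For Mt1, Mt2, Hmox1, Blvrb, Ftl1 and Slc11a1 both D14 groups were lowest, and their libraries overlapped for each of these genes.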

How the data were processed

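RNA was sequenced from 27 samples of gastrocnemius muscle: 3 libraries for each of WT and KO on D1, D4, D7 and D14 after CTX, and 3 of WT control muscle. The sample titles gave the group and the replicate number of each library. The authors deposited TPM per gene in a table of 24 injured libraries and a separate table of 3 control and the 3 WT D1 libraries, with values scaled to the same sum in every library and no record of depth. The submitters' processing notes name the build mm10, and the aligner, the counting tool and the use of strand were not given in the sources used here. The columns of group means and of the authors' own comparisons were not used.

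TPM values were tested as log2(TPM + 1) with limma 3.58.1 in R 4.3.3, 1 mean per group, a variance trend, and genes with at least 1 TPM in 3 or more libraries (15718 in the injured and 13041 in the control table). P-values were two-sided and Benjamini-Hochberg adjusted over all genes tested, and a gene was called at an adjusted p under 0.05. The fit was tested on simulated data. The replicates are separate samples by their labels, described as biological triplicates.

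The genes and lists were chosen with earlier results of these data known. All 10 genes are named in every comparison; of each list, up to 4 called genes with the largest difference may be named, together with textbook partners such as Cd163, Hpx, Alas1, Trf, Mt3 and Lcn2, and the 3 genes with the highest Pearson r over 24 libraries. Gsdme, Adipoq, S100a8, albumin and Itgam are named as checks, Gm42793 and Dynlt1b as the genes called between genotypes, and Mt4, Blvra, Bach1, Hjv, Isca1, Slc11a2, the other list genes beyond 4 and the NRF2 targets were named after their values were seen. The list of heme synthesis genes is not reported here in full. Marker lists were used as sums of TPM. Median-of-ratios scaling divided each library by the median ratio of its genes to their geometric means.

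Replicate numbers were checked for pairing by the correlation of same-numbered libraries' deviations from their group means. All 3 pairs exceeded 0.1 only between KO D1 and KO D4 (0.192 to 0.377) and between KO D4 and KO D7 (0.13 to 0.442), where the labels give no reason for pairs. Between control and WT D1 libraries they were 0.00213 to 0.0611. Coordinates are from GENCODE mouse release M21 (GRCm38, the same assembly as mm10), to which all 10 gene IDs matched. Promoter sequences are from RefSeq (GRCm38.p6) and transcript sequences from GENCODE.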

Additional observations from a re-analysis of the deposited data

Results flagged for a closer look

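Hmox1 was marked for a closer look because every KO library was above every WT library on D1 and every KO library was below every WT library on D4. The difference between KO and WT muscle on the log2 scale was 3.03 larger on D1 than on D4. The test across days gave an unadjusted p of 0.0147 and a limma adjusted p of 0.527 over all genes, so the change of direction did not pass. The groups of 3 libraries were too small to mark single libraries as outliers.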

How the results depend on the processing

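The count of called members was compared under a pseudocount of 0.1, no filter, a minimum of 5 TPM, median-of-ratios scaling, library quality weights, a fit to the libraries of 1 day, a replicate block and the omission of each library. The counts were the same within 1.5 times under the other pseudocount, the minimum of 5 TPM, the fits to single days and the replicate block, where for example 5 members were called from WT D1 to D4 and 0 between KO and WT on D14 with or without pairing by number; the block changed no call. With library quality weights, whose estimation stopped before its tolerance was reached, the count was 1 for KO minus WT on D7 (Mt2, 0.81, adjusted p = 0.048), 1 on D14 (Hp), 1 for the average over days (Hp, 1.45, adjusted p = 0.0326), 9 for WT D4 to D7, 7 for WT D7 to D14 and 7 for KO D7 to D14. With no filter and with median-of-ratios scaling the count for WT D7 to D14 was 2. When 1 library at a time was left out, the count ranged from 0 to 1 for KO minus WT on D14, 0 to 6 for WT D4 to D7, 0 to 6 for WT D7 to D14, and 6 to 10 for WT D1 minus control. It ranged from 4 to 5 for WT D1 to D4, from 5 to 6 for KO D1 to D4, and stayed at 0 in the other comparisons. The 6 in the control comparison came from leaving out control replicate 1. Of the 40 differences of single members examined, 1 turned direction, that of Fth1 between WT D1 and control (-0.059 under median-of-ratios scaling). In that comparison the scaling moved the median of all genes from 0.66 to 0.001. The cause of the other changes was not tested. What depth limits is unknown, and 3 libraries per group limit all comparisons.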
